A study of Homo sapiens with 6 samples.

Results

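The genes described here encode the semaphorins, netrins and slits, the secreted and membrane-bound cues that steer growing axons and migrating cells, together with the receptors and cofactors that read them. They were taken by symbol from the count table: the class 3 to 7 semaphorins, the plexins, the neuropilins, the netrins and netrin-Gs, DCC and NEO1, the UNC5 receptors, the repulsive guidance molecules RGMA and RGMB, DRAXIN, the slits and the ROBO receptors. The rule found 53 genes among 61155 symbols. It used symbols and no measured value, but the members were chosen with earlier results of these data known.

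The table came from bulk RNA sequencing of undifferentiated H7 cells, an established human embryonic stem cell (hESC) line, grown without feeder cells on Matrigel in TeSR-E8 medium. WT hESCs (3 libraries) were compared with S6K1-/- hESCs (3 libraries) of a single clone, clone #1, made by transfecting Cas9 with guides against exons 9 and 11 of RPS6KB1, the gene for S6K1, a kinase activated by mTOR complex 1. The labels add a time of week 5 and call the mutated line a knockdown, whereas the methods describe undifferentiated cells and a knockout, so genotype and stage follow the methods here. Neither labels nor methods say whether the 3 libraries of a group came from separate cultures, and with 1 clone the effect of the deletion cannot be told apart from other differences between clones.

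Semaphorins act mainly through plexins, and most class 3 semaphorins, which are secreted, need a neuropilin as co-receptor. Netrin-1 draws axons in through DCC and NEO1 (neogenin) and repels them through UNC5 receptors, whereas slits repel through ROBO receptors. The same families are also used outside the nervous system, in blood vessel growth, cell adhesion and migration, so their transcripts are not restricted to neurons.

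RPS6KB1 itself was counted 831, 791 and 777 times in WT and 464, 464 and 438 times in S6K1-/- libraries, a log2 fold change of -0.75 (SE 0.057, adjusted p = 2.52e-07). The groups were well separated, although the counts cover the whole gene, including exons outside the targeted stretch. Libraries held 21896698 to 24473013 counts, of which the guidance genes took 0.253% to 0.270%. The stem cell label was checked against its markers. POU5F1 (OCT4) had 4116 to 4490 counts in WT and 3914 to 4264 in S6K1-/- libraries (log2 fold change -0.04, adjusted p = 0.733), and the summed level of 7 pluripotency markers was 4938 to 5152 CPM (a gene's count relative to the scaled library total) in WT and 4855 to 4874 CPM in S6K1-/-, slightly lower in every mutant library. Of these 7 markers, none passed 0.001 in edgeR's quasi-likelihood test or in DESeq2's Wald test, 2 had an unadjusted p under 0.05, and TDGF1, a NODAL co-receptor, passed 0.05 (log2 fold change -0.15, adjusted p = 0.0308).

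Undifferentiated hESCs expressed a broad set of guidance genes. In WT libraries 31 of the 53 reached a mean of 10 CPM, 17 lay between 1 and 10 CPM and 5 lay under 1 CPM. To compare genes with each other, levels were divided by exon length. SEMA6A, a transmembrane class 6 semaphorin, stood first at 73.1 ± 2.76 CPM per kb (SD, n = 3) in WT and 71.6 ± 1.91 in S6K1-/- hESCs. It supplied 45.0% to 47.8% of the summed per-kb level of all semaphorins in each of the 6 libraries. The next in order were the slit receptor ROBO1 at 17.7 ± 2.00 CPM per kb in WT, the plexin PLXNB2 at 14.5 ± 0.490, the netrin receptor UNC5B at 14.2 ± 0.669 and SEMA4C at 13.8 ± 0.514. UNC5B differed from PLXNB2 before it and from SEMA4C after it by less than 1 SD.

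Ligands and receptors of one system were not present at like levels. The slits were low, with SLIT2 the highest at 1.24 ± 0.153 CPM per kb in WT, although ROBO1 ranked second among all 53 genes. NTN1, the gene for netrin-1, was at 1.59 ± 0.0505 CPM per kb, against 11.1 ± 0.675 for its receptor NEO1 and 0.165 ± 0.0293 for DCC. Of the neuropilins, NRP2 was at 7.43 ± 0.317 and NRP1 at 0.159 ± 0.00644 CPM per kb. The endothelial receptor ROBO4 was the lowest of all, with 0 to 2 counts in WT and 1 to 4 in S6K1-/- libraries.

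**Figure D1:**
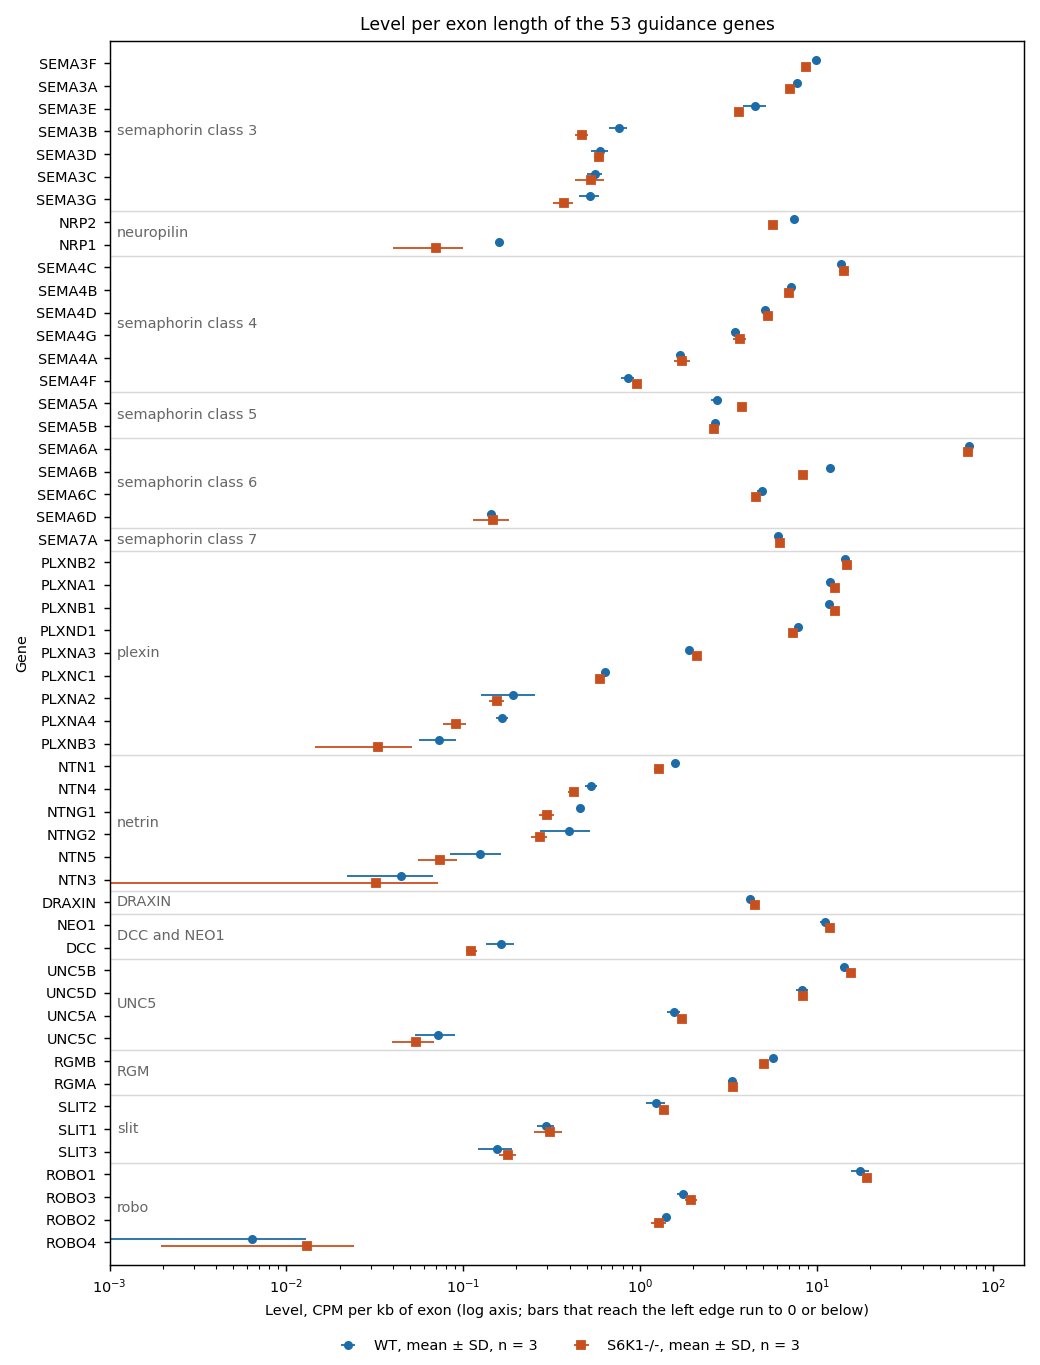
Mean level of each of the 53 guidance genes in CPM per kb of exon on a log axis, in WT (circles) and S6K1-/- hESCs (squares), grouped by role, with bars of 1 SD over 3 libraries. SEMA6A stands apart at 73.1 CPM per kb in WT, and the genes of most roles span more than one decade.

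Of the 53 genes, 49 had enough counts to be tested, and 3 changed at the study's threshold of an adjusted p under 0.001. SEMA6B and NRP2 fell and SEMA5A rose. With 2 of 49 lower and 1 of 49 higher, the counts stood beside 2.54% of all 19521 tested genes called lower and 1.42% called higher. Without the filter on low counts 7 guidance genes were lower and 1 higher at 0.001. Over all genes that fit called 982 lower instead of 496, and 591 higher instead of 278. At an adjusted p under 0.05, 11 of the 49 were lower (22.4%) and 1 was higher, against 8.31% and 5.47% of all tested genes. That larger count depended on having all 6 libraries: it was 6 to 8 when any single library was left out (6 without WT replicate 1 or S6K1-/- replicate 1) and 7 with DESeq2's Wald test. Calls over all genes fell too in the fits without a library, from 496 lower at 0.001 to 313 to 445. No all-gene share at 0.05 is given for those fits. In 14 of the 49 every S6K1-/- library lay below every WT library and in 9 every one lay above, shares to be read against 16.7% and 14% of all tested genes. The median log2 fold change of the 49 genes was -0.03 and that of all tested genes was -0.00.

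**Figure D2:**
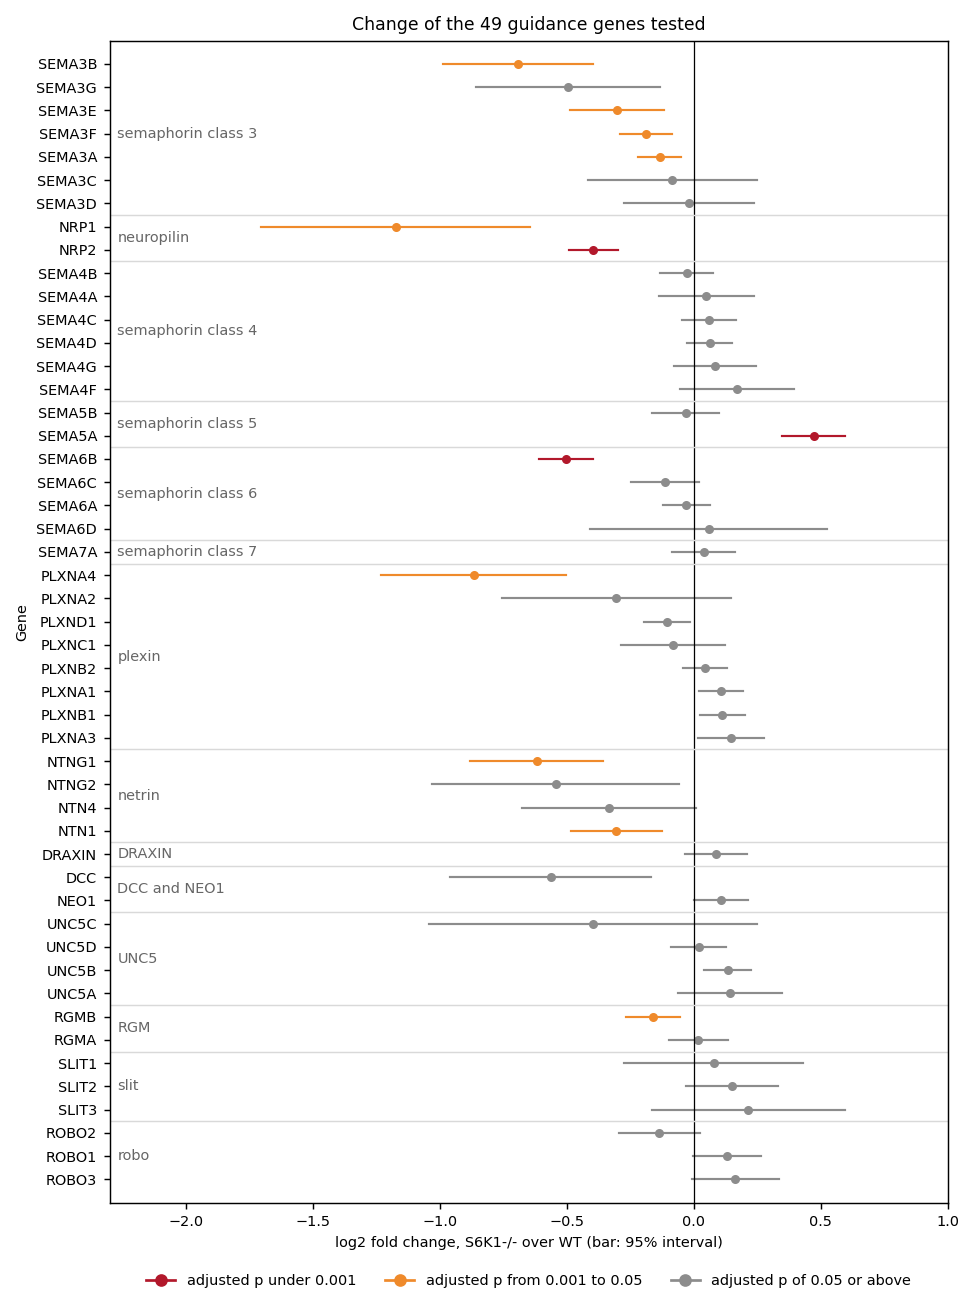
Log2 fold change of S6K1-/- over WT hESCs for the 49 tested guidance genes, grouped by role, with bars of the 95% interval. SEMA6B, NRP2 and SEMA5A (dark red) passed an adjusted p of 0.001, 9 further genes (orange) passed 0.05, all of them lower, and the remaining 37 (grey) passed neither.

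SEMA6B, a transmembrane class 6 semaphorin that binds PLXNA2 and PLXNA4, had the smallest p of the families. Its counts in WT were 1398, 1422 and 1243, and those in S6K1-/- were 924, 987 and 837. The lowest WT library thus lay above the highest S6K1-/- library. The level fell from 56.3 ± 2.39 to 39.7 ± 1.42 CPM (SD, n = 3), a log2 fold change of -0.50 (SE 0.050, adjusted p = 4.96e-06) and a fall of 29.5%. Per kb of exon, SEMA6B dropped from rank 6 to rank 10 of the 53 genes. The gene (ENSG00000167680.17) lies on the minus strand of chromosome 19 from 4542593 to 4581776 in GRCh38, and no other annotated exon overlaps its exons. Its class 6 relatives did not pass 0.05: SEMA6A went from 797.6 ± 30.1 to 781.2 ± 20.8 CPM (log2 fold change -0.03, adjusted p = 0.720), SEMA6C had a log2 fold change of -0.11 (adjusted p = 0.275) and SEMA6D one of 0.06 (adjusted p = 0.904), and their 95% intervals reached no lower than -0.12, -0.25 and -0.41.

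The plexins that receive SEMA6B were scarce in these cells. PLXNA4 had 70, 61 and 65 counts in WT and 36, 40 and 27 in S6K1-/- libraries, again without overlap. This was a log2 fold change of -0.87 (SE 0.170, adjusted p = 0.00276), from 2.72 ± 0.209 to 1.48 ± 0.220 CPM. PLXNA4 passed 0.05 with each library left out in turn but never 0.001 (adjusted p from 0.00425 to 0.0183). PLXNA2, the other partner, was at 2.64 ± 0.888 CPM in WT and 2.14 ± 0.215 CPM in the knockout, with a log2 fold change of -0.30 whose 95% interval ran from -0.76 to 0.15 (adjusted p = 0.398).

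NRP2, the co-receptor for SEMA3F and several other class 3 semaphorins, had 2591, 2414 and 2440 counts in WT and 1910, 1850 and 1671 in S6K1-/- libraries. All 3 S6K1-/- values lay well under the lowest WT value. The level fell from 103 ± 4.41 to 78.5 ± 2.51 CPM, a log2 fold change of -0.40 (SE 0.044, adjusted p = 1.77e-05). The gene (ENSG00000118257.17) spans 205681990 to 205798133 on the plus strand of chromosome 2, and an antisense transcript overlaps 1.1% of its exon length. NRP1, which serves SEMA3A and VEGF, had 45, 43 and 44 counts in WT and 28, 16 and 12 in S6K1-/- libraries. Its S6K1-/- libraries spread widely, and the log2 fold change was -1.17 (SE 0.248, adjusted p = 0.00474). Without S6K1-/- replicate 1, its highest mutant library, NRP1 had a log2 fold change of -1.57 and an adjusted p of 7.37e-04, and in the other 5 fits without a library the values ran from -0.97 to -1.20 (adjusted p 0.00910 to 0.0278). Antisense exons overlap 4.9% of the exon length of NRP1. Summed, the 2 neuropilins took 99.9 to 108 CPM in WT and 77.3 to 82.5 CPM in S6K1-/- libraries, nearly all of it from NRP2.

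The class 3 semaphorins, most of which use these co-receptors, had fold changes below 0 in all 7 cases with all libraries, and 4 of the 7 were lower at an adjusted p under 0.05 in edgeR's quasi-likelihood test, none at 0.001 (5 had an unadjusted p under 0.05, and 2 passed 0.05 with DESeq2). Of all tested genes, 50.6% were below 0 and 8.31% lower at 0.05. With a library left out, 2 of the 7 turned above 0, SEMA3C in 1 fit (0.06 without S6K1-/- replicate 2) and SEMA3D in 3 (at most 0.04, without WT replicate 1 or 2 or S6K1-/- replicate 3). SEMA3B had 117, 111 and 88 counts in WT and 58, 66 and 63 in S6K1-/- libraries (log2 fold change -0.69, SE 0.138, adjusted p = 0.00312), and it passed 0.05 with any library left out. Its groups did not overlap. SEMA3F, the main NRP2 ligand and the highest class 3 gene per kb, went from 47.6 ± 1.88 to 41.9 ± 0.312 CPM (log2 fold change -0.19, SE 0.048, adjusted p = 0.0163). SEMA3A, a repellent of cortical axons that acts through NRP1, went from 71.9 ± 0.224 to 65.5 ± 0.893 CPM (log2 fold change -0.13, SE 0.040, adjusted p = 0.0362). Both shifts were small, but the 3 libraries of each group lay so close together that the groups did not overlap for either gene.

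SEMA3E, which binds PLXND1 without a neuropilin, had 959, 780 and 999 counts in WT and 749, 742 and 642 in S6K1-/- libraries. In CPM one WT library (31.7) lay just below the highest S6K1-/- library (31.9), and the log2 fold change was -0.30 (SE 0.086, adjusted p = 0.0286). Without that WT library, replicate 2, the value was -0.42 (adjusted p = 2.19e-04), and in the other 5 fits without a library the adjusted p ran from 0.0543 to 0.160. SEMA3F passed 0.05 in 2 of the 6 such fits (without WT replicate 3 or S6K1-/- replicate 2; highest adjusted p 0.0730) and SEMA3A in none (0.0531 to 0.117). Neither passed with DESeq2's Wald test (adjusted p = 0.0796 and 0.191), and SEMA3A did not without the filter on low counts (0.0759). The remaining class 3 genes did not pass 0.05: SEMA3G had a log2 fold change of -0.49 (adjusted p = 0.0690), SEMA3C one of -0.08 (adjusted p = 0.786) and SEMA3D one of -0.02 (adjusted p = 0.946). The summed level of the class was 169 to 175 CPM in WT and 149.9 to 152 CPM in S6K1-/- libraries.

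**Figure D3:**
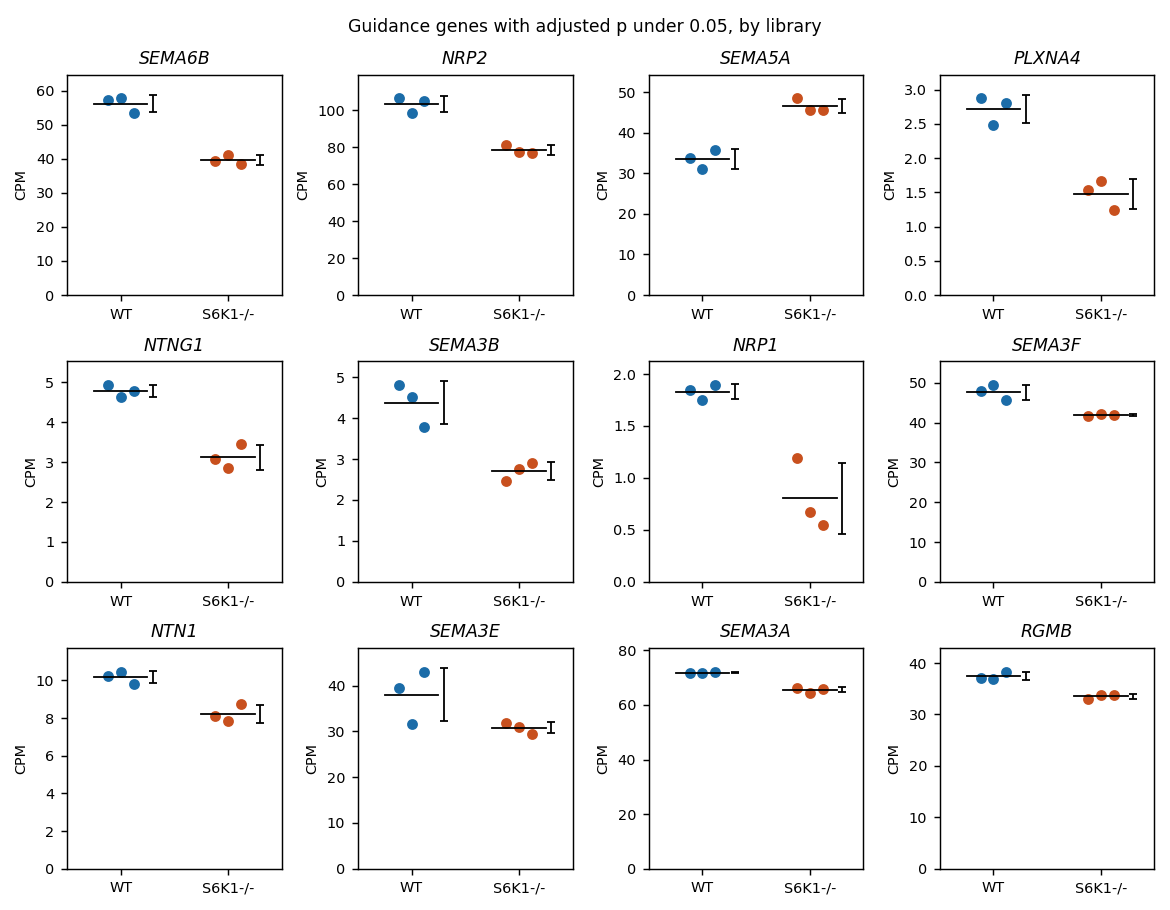
CPM of each of the 6 libraries for the 12 guidance genes with an adjusted p under 0.05, with the group mean (line) and SD (bar, n = 3), each vertical axis starting at 0. SEMA5A is the only one of the 12 that is higher in S6K1-/- hESCs, and SEMA3E is the only one whose groups overlap.

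SEMA5A was the one guidance gene that rose. It encodes a transmembrane semaphorin with thrombospondin repeats that binds PLXNB3 and, in neurons, PLXNA1 and PLXNA3. Counts were 825, 763 and 832 in WT and 1140, 1091 and 992 in S6K1-/- libraries, so every S6K1-/- library exceeded every WT library. The level rose from 33.6 ± 2.41 to 46.6 ± 1.72 CPM, a log2 fold change of 0.47 (SE 0.058, adjusted p = 4.38e-05) and a gain of 38.7%. The gene (ENSG00000112902.12) lies on the minus strand of chromosome 5 from 9035033 to 9546075, and antisense exons overlap 3.5% of its exon length. SEMA5B, the other class 5 gene, was at 22.8 ± 1.01 and 22.3 ± 0.575 CPM (log2 fold change -0.03, 95% interval -0.16 to 0.10, adjusted p = 0.792). Of its receptors, PLXNB3 was near the detection limit with 10, 12 and 15 counts in WT and 2, 8 and 6 in S6K1-/- libraries, and it was not tested. SRPK3, a gene on the same strand, overlaps 20.4% of the exon length of PLXNB3. PLXNA1 was at 133 ± 5.65 and 143 ± 2.01 CPM (log2 fold change 0.11, adjusted p = 0.108), and PLXNA3 at 22.2 ± 0.959 and 24.6 ± 0.651 CPM (log2 fold change 0.15, adjusted p = 0.131).

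Among the called genes, NRP2 and SEMA5A had a RefSeq start in the promoter table used (GRCh38.p14), and the 250 bases before it are shown because these 2 genes moved in opposite directions. Capitals mark each GC box, the letters GGGCGG or, on the other strand, CCGCCC, with adjacent boxes running together. The window of NRP2 is chr2:205682251-205682500 on the plus strand, inside the longer gene span of the GENCODE annotation, and that of SEMA5A is chr5:9546076-9546325 on the minus strand.
NRP2: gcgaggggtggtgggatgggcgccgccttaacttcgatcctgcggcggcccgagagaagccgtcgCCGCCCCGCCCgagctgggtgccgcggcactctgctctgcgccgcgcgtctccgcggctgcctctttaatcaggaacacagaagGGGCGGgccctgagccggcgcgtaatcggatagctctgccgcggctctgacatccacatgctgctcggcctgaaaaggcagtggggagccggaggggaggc
SEMA5A: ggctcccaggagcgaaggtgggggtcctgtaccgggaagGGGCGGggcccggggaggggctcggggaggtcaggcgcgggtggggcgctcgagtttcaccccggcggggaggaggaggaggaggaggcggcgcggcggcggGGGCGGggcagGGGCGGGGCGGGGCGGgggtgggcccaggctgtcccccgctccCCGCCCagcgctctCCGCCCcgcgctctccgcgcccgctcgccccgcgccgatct
The window of NRP2 was 70.0% G or C with 29 CpG pairs and 3 GC boxes, and that of SEMA5A was 82.0% G or C with 33 CpG pairs and 7 GC boxes. Neither held the letters TATAAA or CACGTG on either strand. The table held 78 windows for 44 of the 53 genes, and 64.1% of these windows contained a GC box, against 42.6% of all 35116 windows of the same length. TATAAA occurred in 1.3% and 10.7%, and CACGTG in 3.8% and 6.3%. Both windows are thus GC-rich like those of the families in general (median 66.0%, against 58.0% over all windows). The window of SEMA5A also holds the start of the lncRNA gene SNHG18, which runs the other way from 9546170. SNHG18, examined after its values were seen, had 246, 235 and 219 counts in WT and 237, 204 and 201 in S6K1-/- libraries (log2 fold change -0.06, adjusted p = 0.703).

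The class 4 and class 7 semaphorins did not pass. In edgeR's quasi-likelihood test none of the 6 class 4 genes had an adjusted p under 0.05 or an unadjusted p under 0.05, and none passed with DESeq2. Their log2 fold changes ran from -0.03 for SEMA4B to 0.17 for SEMA4F. SEMA4C, the highest of the class per kb, was at 86.3 ± 3.22 and 89.9 ± 5.66 CPM (95% interval of the log2 fold change -0.05 to 0.16). SEMA7A, a membrane-anchored semaphorin that binds PLXNC1 and integrins, was at 23.1 ± 0.546 and 23.7 ± 0.681 CPM (log2 fold change 0.04, adjusted p = 0.735). An antisense gene, MRPL43, overlaps 22.9% of the exon length of SEMA4G.

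Among the 8 plexins tested, only PLXNA4 passed 0.05, and none of the abundant ones did. Of all tested genes, 8.31% were lower and 5.47% higher at 0.05. The highest of each subfamily per kb were PLXNA1 (above), PLXNB2 at 106 ± 3.56 and 109 ± 2.42 CPM (log2 fold change 0.04, adjusted p = 0.550), PLXNC1 at 6.34 ± 0.243 and 5.98 ± 0.149 CPM (log2 fold change -0.08, adjusted p = 0.641) and PLXND1 at 75.4 ± 2.12 and 70.1 ± 2.06 CPM (log2 fold change -0.10, adjusted p = 0.127). PLXNA1, PLXNA3 and PLXNB1 were higher in every S6K1-/- library, and PLXND1, the SEMA3E receptor, lower in every one, without passing 0.05. The summed level of the 9 plexins was 445 to 478 CPM in WT and 473 to 488 CPM in S6K1-/- libraries.

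All 4 tested netrin and netrin-G genes (NTN1, NTN4, NTNG1 and NTNG2) had fold changes below 0, from low starting levels. Of them, 2 were lower at 0.05, and with DESeq2 only 1, the netrin-G gene NTNG1. Over all tested genes 50.6% were below 0 (56.0% of those under 10 CPM) and 8.31% were lower at 0.05. NTNG1, which encodes the membrane-anchored netrin-G1 found at axons and synapses, had 120, 114 and 111 counts in WT and 72, 68 and 75 in S6K1-/- libraries (log2 fold change -0.62, SE 0.123, adjusted p = 0.00301). NTN1 had 249, 257 and 228 counts in WT and 190, 188 and 191 in S6K1-/- libraries (log2 fold change -0.30, SE 0.083, adjusted p = 0.0235). Neither gene's groups overlapped. NTNG1 passed 0.05 with any library left out, and NTN1 in 2 of 6 such fits (without WT replicate 3 or S6K1-/- replicate 3; highest adjusted p 0.0846). With DESeq2's Wald test NTN1 did not pass (adjusted p = 0.188). NTN4 and NTNG2 had log2 fold changes of -0.33 and -0.54 without passing (adjusted p = 0.203 and 0.138). Single WT libraries decided the value of NTNG2, which was -0.75 (adjusted p = 0.0297) without WT replicate 2 and -0.29 (adjusted p = 0.487) without WT replicate 3. The 2 other netrins, NTN3 with 0 to 4 counts and NTN5 with 4 to 13, were not tested. Summed over the 6 netrin and netrin-G genes, the level was 19.4 to 20.2 CPM in WT and 14.2 to 15.9 CPM in S6K1-/- libraries.

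No netrin receptor passed 0.05. NEO1 was at 90.2 ± 5.49 and 97.1 ± 4.16 CPM (log2 fold change 0.11, adjusted p = 0.188). UNC5B, the highest UNC5 gene, was above WT in every S6K1-/- library at 97.3 ± 4.58 and 107 ± 1.89 CPM, and it just missed 0.05 (log2 fold change 0.13, SE 0.043, adjusted p = 0.0537, and 0.0240 to 0.139 over the fits with another setting or without a library). DCC, at 2.16 ± 0.384 and 1.46 ± 0.103 CPM, was lower in every S6K1-/- library and did not pass 0.05 (log2 fold change -0.56, SE 0.186, adjusted p = 0.0580). Its adjusted p ran from 0.0497 without the filter on low counts and 0.0499 with library totals to 0.239 without WT replicate 1 and 0.332 with DESeq2's Wald test. None of the 4 UNC5 genes passed 0.05 in edgeR's or DESeq2's test, and 1 had an unadjusted p under 0.05. DRAXIN, a secreted antagonist that binds netrin-1 and DCC, was at 31.1 ± 0.984 and 33.1 ± 1.74 CPM (log2 fold change 0.09, adjusted p = 0.360).

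RGMB, a NEO1 ligand and BMP co-receptor, had 904, 907 and 889 counts in WT and 775, 810 and 734 in S6K1-/- libraries. The groups were separate after scaling, at 37.4 ± 0.736 and 33.5 ± 0.448 CPM, but the difference was small (log2 fold change -0.16, SE 0.050, adjusted p = 0.0464), and it did not pass 0.05 in any fit without a library (adjusted p 0.0605 to 0.169), nor with DESeq2 size factors (0.0557), no filter on low counts (0.0808) or DESeq2's Wald test (0.240). Exons of an unnamed antisense gene overlap 40.4% of the exon length of RGMB, so reads of the 2 genes may be mixed if counting ignored strand. RGMA had a log2 fold change of 0.02 (95% interval -0.10 to 0.13, adjusted p = 0.875).

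With all 6 libraries and the filter on low counts, no slit or ROBO gene passed 0.05 in edgeR's or DESeq2's test, and none had an unadjusted p under 0.05 in edgeR's. SLIT2 was at 13.7 ± 1.69 and 15.3 ± 0.512 CPM (log2 fold change 0.15, 95% interval -0.03 to 0.33), and it passed 0.05 without WT replicate 1 (0.27, adjusted p = 0.0476) and was at 0.09 without WT replicate 2. ROBO1, the dominant receptor, had 5135, 4179 and 4762 counts in WT and 5100, 5059 and 4636 in S6K1-/- libraries. In CPM every S6K1-/- library (211.3 to 217.2) lay above every WT library (170.0 to 210.9), and the WT libraries spread more. The log2 fold change was 0.13 (95% interval -0.00 to 0.26, adjusted p = 0.198). It was 0.04 without WT replicate 2 and 0.20 without WT replicate 1, neither past 0.05, and the adjusted p was 0.0343 without the filter on low counts. For 30 of the 37 tested genes of all roles that did not pass 0.05, the 95% interval lay within a 1.5-fold change either way, and for 35 within 2-fold.

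Fold changes lay farther below 0 among the low-level members. Of the 31 tested genes at or above 10 CPM in WT, 13 had a fold change below 0 (median 0.04) and 7 were lower at 0.05. Of the 18 tested genes under 10 CPM, 13 were below 0 (median -0.32) and 4 were lower at 0.05. Over all tested genes at or above 10 CPM, 46.0% were below 0 and 7.65% lower at 0.05, and under 10 CPM these shares were 56.0% and 9.08%. With the main settings no guidance gene under 10 CPM passed 0.001, and the 3 that passed were at 33.6 to 103 CPM in WT. Without the filter on low counts NRP1, SEMA3B, PLXNA4 and NTNG1, all under 10 CPM, passed too (adjusted p 1.54e-05 to 3.65e-04 in edgeR's test). NRP1 also passed without S6K1-/- replicate 1 (7.37e-04).

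To see whether the machinery around the guidance genes moved with them, 65 listed partners were examined: semaphorin and plexin effectors, adaptors of DCC and UNC5, slit and ROBO effectors, and BMP and neogenin partners of RGM. Of these, 61 were tested, and 1 was lower at an adjusted p under 0.001 (against 2.54% of all tested genes). It was RRAS, a small GTPase that plexins inactivate, with 232, 289 and 230 counts in WT and 141, 155 and 156 in S6K1-/- libraries (log2 fold change -0.67, SE 0.104, adjusted p = 3.88e-04). Its groups did not overlap, but it kept the threshold in only 1 of 6 fits without a library, and lost it without WT replicate 2 or 3 or any S6K1-/- replicate (adjusted p 0.00109 to 0.00322). None of the 61 was higher at 0.001 in edgeR's test, although 2 were in DESeq2's Wald test. At an unadjusted p under 0.05, 15 were higher and 10 lower. At least 5133 of all 19521 tested genes had such a p, in either direction. At an adjusted p under 0.05, 6 partners were lower and 7 higher, against 8.31% and 5.47% of all tested genes. Fold changes were below 0 for 26 partners and above 0 for 35.

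Because the guidance families are used by neurons and other cells, markers of other cell types are given beside these results. Of 7 neuron markers 5 were tested and 4 were lower at 0.05 (against 8.31% of all tested genes), among them STMN2 (log2 fold change -1.70) and DCX (log2 fold change -0.54), and SYT1 was not (0.07, adjusted p = 0.416). DESeq2's Wald test called 3 of the 6 it gave an adjusted p. ELAVL4 went from 12, 12 and 9 counts to 0 in every S6K1-/- library, and NEUROD1 had 0 or 1 counts throughout. The summed neuron level was 148 to 159 CPM in WT and 111 to 115 CPM in S6K1-/- libraries. Most of that difference came from STMN2 (mean 49.9 and 15.3 CPM), whereas SYT1, the highest of these markers, was at 71.0 and 74.5 CPM. The sum was lower in the same libraries as the neuropilins, class 3 semaphorins and netrins, and its part in their change was not tested. In bulk RNA, fewer cells of a type and less RNA per cell cannot be told apart.

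The neuroectoderm list moved the other way. PAX6 (log2 fold change 0.76, adjusted p = 2.69e-04) and SOX1 (1.29, adjusted p = 0.0174) were higher at 0.05, SOX1 without passing 0.001. The list's other 4 markers had 0 to 14 counts. The list summed to 5.26 to 5.64 CPM in WT and 7.79 to 9.05 CPM in S6K1-/- libraries. Of 3 tested mesenchyme markers 1 was lower at 0.05, PDGFRB (log2 fold change -1.34, adjusted p = 5.41e-06), which also passed 0.001. DCN was at 0 in all libraries, and the list summed to 484 to 507 and 475 to 496 CPM. Of 2 tested endothelial markers TEK fell (-3.17) and KDR, at 104 and 107 CPM nearly all of the list's sum, did not pass (log2 fold change 0.04, adjusted p = 0.635), whereas PECAM1, CDH5 and EMCN had 0 to 4 counts, and the list summed to 107 to 120 and 107 to 109.9 CPM. Mesendoderm and endoderm markers summed to 18.3 to 22.6 and 18.1 to 18.9 CPM. At 0.05, 1 of 5 tested was lower, FOXA2 (adjusted p = 0.00108), and 1 higher, MIXL1 (adjusted p = 0.0449). Amnion and trophoblast markers summed to 20.5 to 22.4 and 17.7 to 19.8 CPM. Of 3 tested, 1 was lower at 0.05, KRT7 (adjusted p = 0.00103). FOXA2, MIXL1 and KRT7 did not pass 0.001. Over all tested genes, 8.31% were lower and 5.47% higher at 0.05. The part of these marker lists in the guidance gene results was not tested.

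**Figure D4:**
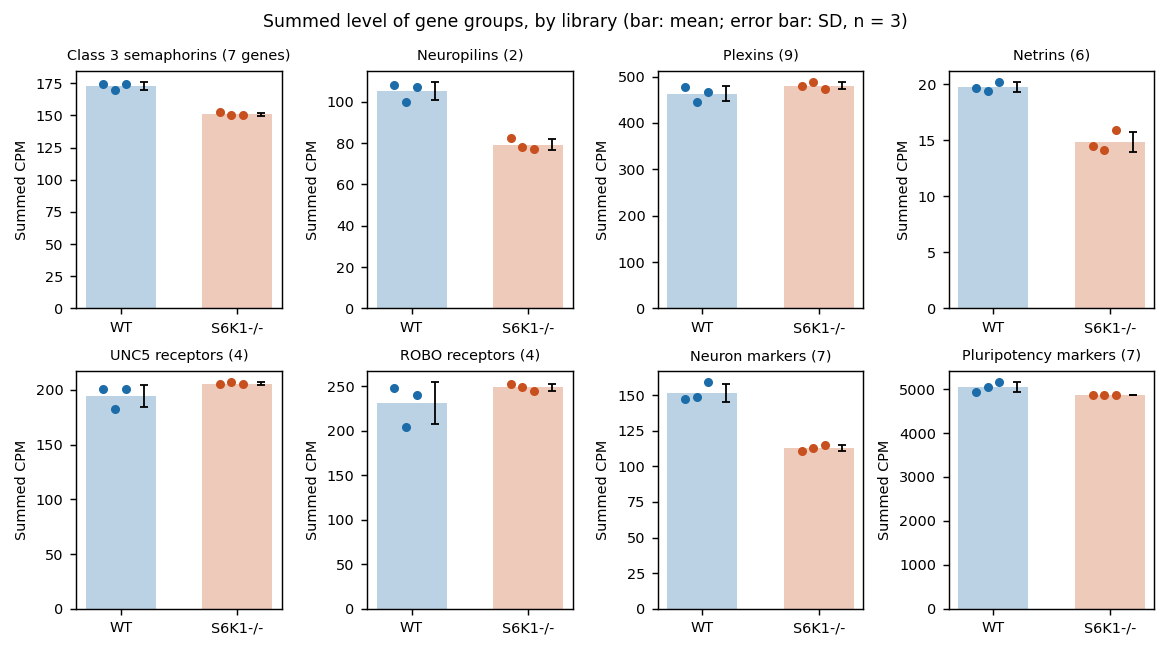
Summed CPM of 6 groups of guidance genes and of the neuron and pluripotency markers in each of the 6 libraries (points), with bars for the mean and error bars for the SD (n = 3), each axis starting at 0. Class 3 semaphorins, neuropilins, netrins and neuron markers lie lower in every S6K1-/- library, as do pluripotency markers by a small margin, UNC5 receptors lie higher, and plexins and ROBO receptors overlap.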

How the data were processed

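H7 hESC RNA was prepared with a stranded TruSeq mRNA kit, giving 3 WT and 3 S6K1-/- libraries. Per the labels and methods, the authors trimmed reads with Trim Galore 0.6.5, aligned them to GRCh38 with Bowtie2 2.4.5, and counted them with featureCounts. Bowtie2 makes no spliced alignments, so counts may lack junction reads. The deposited table holds whole-number counts per gene symbol without normalization. The annotation release and strand setting are not given in the sources used here. A deposited table of the authors' own DESeq2 1.37.4 comparison (mean level, fold change, standard error, statistic, p-values) was not used.

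The groups were compared with edgeR 4.0.16 (R 4.3.3): filterByExpr kept 19521 of 61155 symbols, TMM scaling was applied, and the quasi-likelihood F test used genotype as its only factor, with Benjamini-Hochberg adjustment over all tested genes. "Rose" and "fell" refer to the study's threshold of 0.001 unless 0.05 is named. Standard errors are the log2 fold change divided by the square root of F, and intervals are 95%. CPM uses TMM-scaled library totals, and levels per kb use exon lengths of GENCODE 44 on GRCh38. Intervals cover these libraries, and p-values measure the spread between them, which may be technical. Replicates differed by more than counting noise (chi-square per degree of freedom 2.23 to 4.51 between libraries of a group).

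Members, partner lists, marker lists and tests were chosen with earlier results of these data known. Values in full are given for guidance genes with an adjusted p under 0.05, for the highest gene per kb in each role and for textbook partners of called genes, and partners are named at an adjusted p under 0.001. Alternatives were DESeq2 size factors, library totals, DESeq2's Wald test (1.42.0), no low-count filter, a minimum of 10 counts per library, a block for the replicate number, and each library left out. Counts at 0.05 under these alternatives were added after seeing the data. The steps were tested on simulated data. The labels name no batch.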

Additional observations from a re-analysis of the deposited data

How the results depend on the processing

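SEMA6B, NRP2 and SEMA5A kept their direction and an adjusted p under 0.001 in all 12 alternative fits. Over the 49 tested guidance genes and 12 alternatives, 588 values in all, the 12 genes past 0.05 kept their sign, and 7 values were newly past 0.001. The lower guidance genes numbered 2 and became 7 with no filter on low counts, 11 at 0.05 and 2 to 3 with a library left out, whereas the higher ones stayed at 1. At 0.05, the 11 lower genes became 7 with DESeq2's Wald test and 6 to 8 with a library left out, and the 1 higher gene became 2 with DESeq2 size factors, 3 with no filter and 1 to 3 with a library left out. Of the partners, 1 was lower, and 2 with library totals, 2 with the Wald test, 3 with no filter, 6 at 0.05 and 0 to 1 with a library left out. None was higher, against 3 with no filter, 2 with the Wald test and 7 at 0.05. Over all genes, 496 were lower and 278 higher at 0.001, which became 982 and 591 with no filter, 1622 and 1067 at 0.05, and 313 to 445 and 175 to 235 with a library left out (313 without S6K1-/- replicate 3, 175 and 179 without S6K1-/- replicates 1 and 2). The cause was not tested.

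Whether replicate numbers pair WT with S6K1-/- libraries was not settled. Same-numbered libraries deviated with correlations of 0.21, 0.07 and 0.08, and differently numbered ones with -0.24 to 0.15. WT replicate 2 and S6K1-/- replicate 3 correlated best with each other, and every other library with its own number. With 3 libraries per group, such values cannot decide the question. With the number as a replicate block, 2 guidance genes were lower and 1 higher, 2 partners were lower, 423 genes were lower and 241 higher in all, RPS6KB1 had a log2 fold change of -0.75, and RGMB no longer passed 0.05 (adjusted p = 0.0546). The signs of the 49 genes were unchanged with DESeq2 size factors, and UNC5D and RGMA turned below 0 with library totals. With a library left out, 11 genes that did not pass 0.05 changed sign in at least 1 fit (PLXNA2, RGMA, SEMA3C, SEMA3D, SEMA4A, SEMA4B, SEMA5B, SEMA6A, SEMA6D, SLIT1 and UNC5D). Depth limited mainly PLXNB3, NTN3, NTN5 and ROBO4, which were not tested, and genes such as UNC5C and SEMA6D, whose intervals were wide.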
